A study of Homo sapiens with 6 samples.

Results

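The 57 genes described here encode the machinery that copies DNA in human cells, from the proteins that mark and license replication origins to the helicase, polymerases, clamp, clamp loaders and ligase that work at the fork. They were chosen by gene symbol from known function, and all 57 were present in a table of 18216 genes. The cells were REH, an established human B-cell precursor acute lymphoblastic leukemia line. They were treated for 24 h with 200 nM SNS-032, a small-molecule inhibitor of CDK9 that also acts on CDK2 and CDK7, or with the solvent DMSO as control, and RNA from 3 libraries per group was sequenced. The design holds a single cell line, a single dose and a single time, and the labels do not say that the libraries came from separate cultures, so the p-values measure the spread between these libraries, which may be technical.

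Replication begins when the origin recognition complex (ORC), CDC6 and CDT1 load the ring-shaped MCM2-7 helicase onto DNA in G1, a step known as licensing. Kinases then recruit CDC45 and GINS to the loaded ring, which converts it into the active helicase, and DNA polymerases alpha, delta and epsilon synthesize the new strands behind it. Many of these genes are classical targets of E2F transcription factors and peak in late G1 and S phase, whereas CDK9, as part of P-TEFb, releases paused RNA polymerase II into elongation.

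Most mRNAs of the replication machinery were lower in SNS-032-treated REH cells. Expression is given in FPKM, the fragments scaled to transcript length and to the mapped fragments of the library, and fold changes were fitted with limma on log2(FPKM + 1), a scale that understates the change of low genes. A gene was called lower or higher when its p-value, adjusted by the Benjamini-Hochberg method over the 12239 genes whose DMSO or SNS-032 mean reached 1 FPKM, was under 0.05. All 57 genes passed that filter, and their mean levels with DMSO lay between 8.33 (RPA3) and 390.4 FPKM (MCM7). Of them, 49 (86.0%) were lower, 4 (7.02%) were higher and 4 were called in neither direction. Among all genes tested, 49.3% were lower and 39.9% were higher, so that a change as such was common in these libraries. With only genes at a mean of 5 FPKM or more in DMSO or SNS-032, which removed no replication gene, the shares over all genes were 56.4% lower and 34.3% higher. This set was not matched to the DMSO level of the replication genes, and it includes genes that reached 5 FPKM only with SNS-032. Shifting all libraries to the same median, which moved the median over all genes up by 0.30 on the log2 scale, gave 38.4% lower and 49.9% higher over all genes, and 46 lower and 7 higher of the 57.

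The falls among the replication genes spanned a wide range, which the following counts describe beside the same counts over all genes. The median log2 fold change was -1.14 over the 57 genes and -0.14 over all genes tested, and 50 of the 57 genes lay below the latter value. With only genes at a mean of 5 FPKM or more, the median over all genes was -0.32. The shares that follow are over all genes tested and were not counted again with that filter. A fall of at least 1 on the log2 scale was found for 31 genes (54.4%), beside 19.5% of all genes tested. A fall of at least 2 at an adjusted p under 0.001 was found for 4 genes, CDC6, RNASEH2A, MCM6 and PRIM1 (7.02%, beside 2.43% of all genes tested), and no replication gene rose by that much, beside 3.52% of all genes tested. Counted on linear FPKM, 10 genes were left at 25% or less of their DMSO mean, 24 at 25 to 50%, 16 at 50 to 90% and 7 above 90%. Of all genes tested, 4.74%, 19.2%, 26.1% and 49.9% fell into these classes, in the same order. In 50 genes all SNS-032 libraries were below all DMSO libraries, which held for 49.5% of all genes tested, and in 4 all were above, which held for 40.2%. In bulk RNA, fewer cells in S phase and less replication RNA per cell cannot be told apart.

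**Figure D1:**
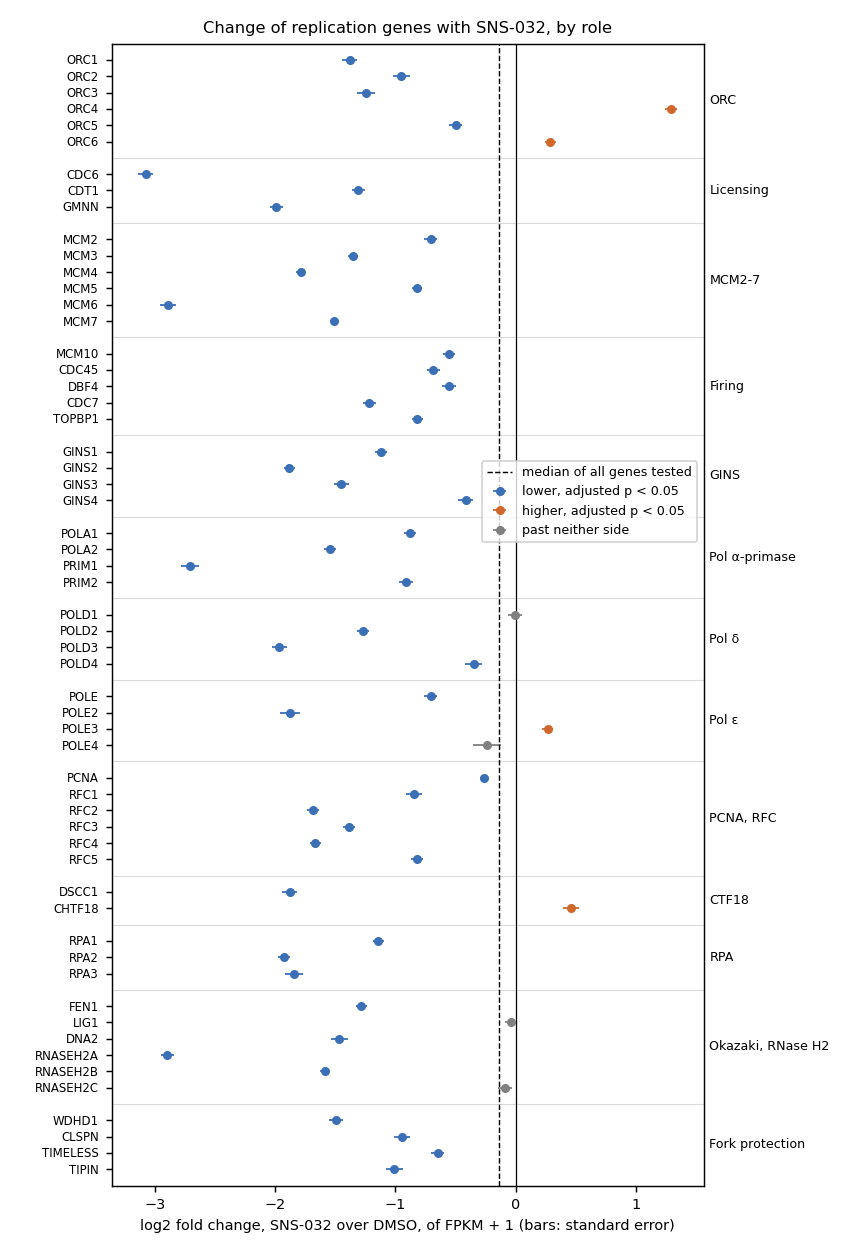
Log2 fold change (SNS-032 against DMSO, on log2(FPKM + 1)) of each of the 57 replication genes on the x axis, one gene per line and grouped by role; bars are standard errors from limma and the colour gives the call. Most points lie left of 0, CDC6 lies lowest at -3.08 and ORC4 lies highest at 1.29.

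**Figure D2:**
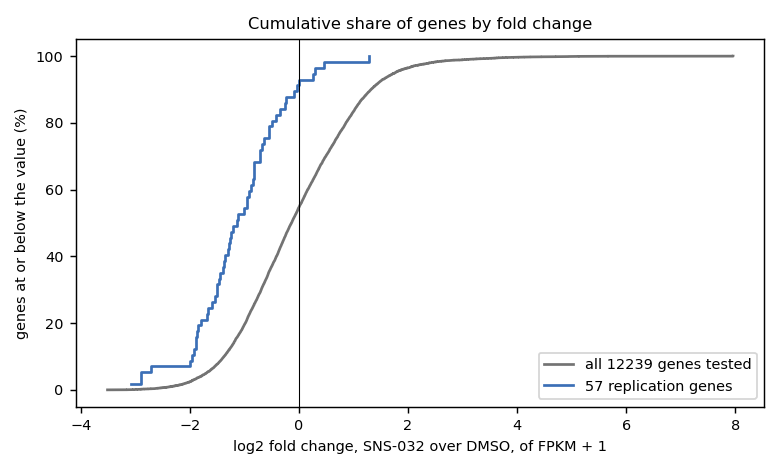
Cumulative share in percent (y axis) of the 57 replication genes and of all 12239 genes tested with a log2 fold change at or below the value on the x axis. The curve of the replication genes is shifted to lower values, with a median of -1.14 against -0.14. The median over genes at a mean of 5 FPKM or more in DMSO or SNS-032, which have no curve here, was -0.32.

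The libraries of a group were close to each other. For the replication genes, the SD was a median 2.56% of the mean with DMSO (at most 12.4%) and 4.98% with SNS-032 (at most 17.0%). The FPKM of a DMSO library summed to 457826 to 464307, and those of an SNS-032 library to 470095 to 491886. Read counts are not given by FPKM, so the depth and counting error of the libraries are unknown. Between 10765 and 10785 genes reached 1 FPKM in a DMSO library, and between 11837 and 11928 in an SNS-032 library. Of the defining B precursor markers, IGLL1, the surrogate light chain, was at 739.6, 809.8 and 745 FPKM with DMSO, while MME (CD10) stayed under 1 FPKM in all libraries. The 14 B precursor markers summed to 2040 to 2191 FPKM in the DMSO libraries and to 1217 to 1359 FPKM in the SNS-032 libraries. Markers of T cells (8 of 10 in the table) summed to 14.8 to 15.02 and 6.29 to 8.06 FPKM, of which LCK held 14.2 to 14.5 and 3.03 to 3.34 while CD3G rose from 0.18 to 0.32 to 2.02 to 3.85. Those of myeloid cells (8 of 10) summed to 9.94 to 10.6 and 22.6 to 24.9 FPKM, those of erythroid cells and megakaryocytes (6 of 10) to 2.20 to 2.53 and 7.09 to 7.97 FPKM, and those of cells outside the blood (11 of 12) to 3.15 to 3.65 and 8.32 to 8.49 FPKM, with DMSO and SNS-032 respectively. No marker in the table was at 0 in all libraries, and the part of these lists in the results was not tested.

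**Figure D3:**
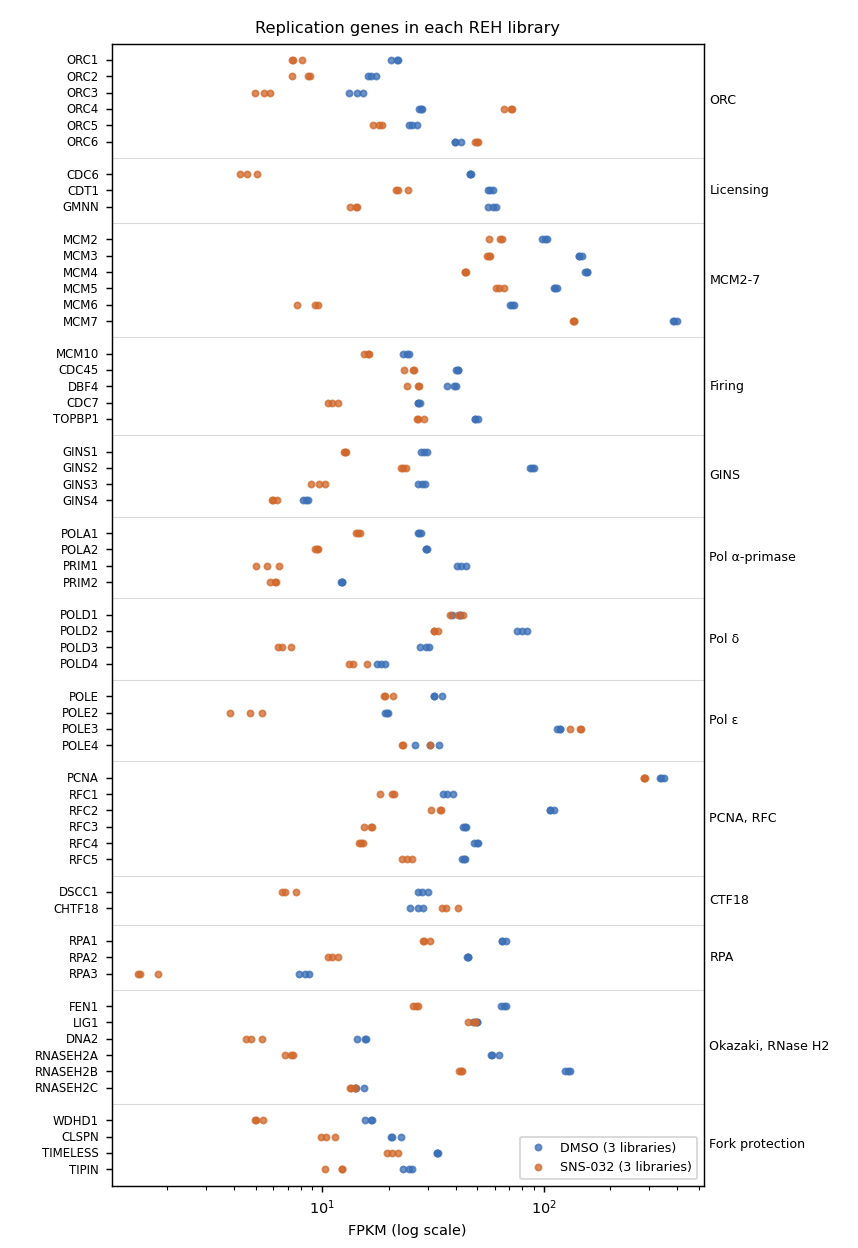
FPKM of each replication gene in each of the 6 libraries (log axis), one gene per line and grouped by role, with DMSO and SNS-032 libraries in separate colours. The points of a group lie close together, and ORC4 is the widest case in which the SNS-032 points (66.5, 70.8 and 72.0 FPKM) lie above the DMSO points (28.2, 27.5 and 27.8 FPKM).

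To see what the promoters of these genes share, windows of 300 bases (250 before the start of transcription and 50 from it on) from RefSeq on GRCh38.p14 were searched on both strands. An entry was found for 49 of the 57 genes, and DSCC1, MCM4, RPA2, RPA3, DNA2, MCM5, POLD3 and GINS4 had none. For a gene with several entries only the first listed was searched, here and for the tested genes, so other starts were not covered. The set of 34943 windows below holds every distinct window instead, so it is not a like set. The E2F core, searched as TTGGCGC or TTCCCGC, was found in 26 of the 49 windows (53.1%), beside 9.22% of 34943 promoter windows and 14.8% of the 9583 windows of tested genes. The CCAAT box (CCAAT), bound by NF-Y, was found in 28 (57.1%, beside 34.6% of all windows and 37.1% of those of tested genes). The CHR element (TTTGAA), known from promoters of G2 and mitotic genes, was found in 1, that of DBF4 (2.04%, beside 15.2% and 9.87%, in the same order). The median log2 fold change was -1.33 over the 26 genes with an E2F core and -0.68 over the 23 without. Over all tested genes it was -0.37 with and -0.16 without. For the CCAAT box the order was the opposite among the replication genes, with -0.98 over the 28 genes with it and -1.22 over the 21 without (-0.22 and -0.18 over all tested genes). A match is a description of the letters and not a bound site.

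The 120 bases before the start are shown for 4 genes that fell, MCM6, PRIM1, ORC1 and CDC6, and for ORC4 and POLE3, which rose, 5′ to 3′ on the strand of the gene. Capitals mark each E2F core and each CCAAT box on either strand (ATTGG where it lies on the other strand), and the build is GRCh38.p14.
MCM6: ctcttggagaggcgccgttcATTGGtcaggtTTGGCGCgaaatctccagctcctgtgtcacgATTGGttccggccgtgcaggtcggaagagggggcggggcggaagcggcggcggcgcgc
PRIM1: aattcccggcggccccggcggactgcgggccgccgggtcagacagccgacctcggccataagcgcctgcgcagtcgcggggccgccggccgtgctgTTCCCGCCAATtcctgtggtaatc
ORC1: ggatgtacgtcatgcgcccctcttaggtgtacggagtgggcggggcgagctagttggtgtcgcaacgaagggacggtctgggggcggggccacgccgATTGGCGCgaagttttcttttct
CDC6: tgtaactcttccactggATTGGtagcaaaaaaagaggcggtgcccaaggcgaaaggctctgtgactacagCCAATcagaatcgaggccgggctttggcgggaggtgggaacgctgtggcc
ORC4: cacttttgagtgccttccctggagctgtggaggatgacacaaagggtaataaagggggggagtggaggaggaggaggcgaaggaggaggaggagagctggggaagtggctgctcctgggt
POLE3: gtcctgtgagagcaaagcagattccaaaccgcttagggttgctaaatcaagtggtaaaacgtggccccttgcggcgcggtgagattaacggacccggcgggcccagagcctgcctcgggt

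The MCM6 window (chr2:135876444-135876563, minus strand) holds an E2F core that starts 89 bases before the transcription start, between a pair of CCAAT boxes at 100 and 58 bases, and a further core lies at 151 bases, outside the stretch shown. In PRIM1 (chr12:56752324-56752443, minus strand) the core at 24 bases runs into a CCAAT box at 18 bases, and in ORC1 (chr1:52404424-52404543, minus strand) the core at 22 bases overlaps a CCAAT box on the other strand at 23 bases. CDC6 (chr17:40287759-40287878, plus strand) has CCAAT boxes at 126, 103 and 50 bases, and its E2F core lies at base 9 after the start, outside the stretch shown. ORC4 (chr2:148021552-148021671, minus strand) and POLE3 (chr9:113410750-113410869, minus strand) hold neither motif in the window. The starts are those of RefSeq, and the GENCODE models of PRIM1, ORC1 and ORC4 reach into the stretches shown. The whole CDC6 stretch lies within its GENCODE model, which starts at chr17:40287633. The motif and the fall did not always go together, since LIG1 (a core at 113 bases) and PCNA (a core at 59 bases) carry an E2F core with log2 fold changes of -0.04 and -0.26. RNASEH2A, with a log2 fold change of -2.90, has a CCAAT box at 13 bases and no E2F core in the window searched.

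**Figure D4:**
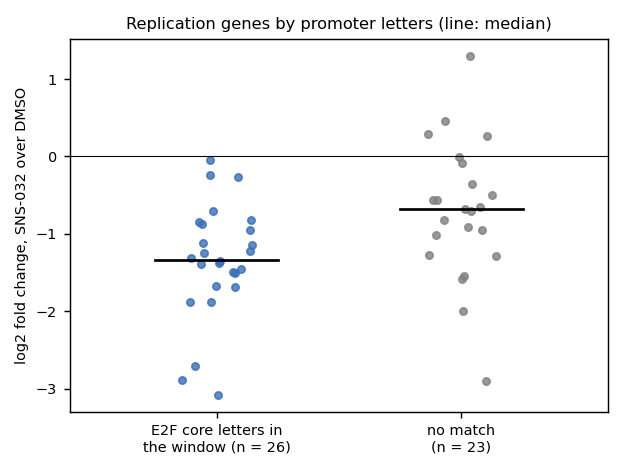
Log2 fold change (y axis) of the 49 replication genes with a RefSeq promoter entry, split by whether an E2F core was found in the 300 base window; each point is a gene and lines mark medians. The 26 genes with the motif have a median of -1.33 and the 23 without one of -0.68, and both groups span a wide range.

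The 6 genes of the origin recognition complex, the platform on which the helicase is loaded, moved in opposite directions: 4 were lower, 2 were higher and the median log2 fold change was -0.72. ORC4 (chr2:147930397-148021604, minus strand), an ATPase-fold subunit of the core, was at 28.2, 27.5 and 27.8 FPKM with DMSO and at 66.5, 70.8 and 72.0 FPKM with SNS-032. It rose 2.50-fold (log2 fold change 1.29 ± 0.0466 (SE), limma adjusted p = 1.12e-10), the largest rise among the 57 genes. ORC6, the subunit outside the ATPase ring, was at 39.7, 39.9 and 42.5 and at 50.2, 48.8 and 50.6 FPKM and rose 1.23-fold (log2 fold change 0.29 ± 0.0459 (SE), limma adjusted p = 7.89e-05). ORC1 (chr1:52372829-52404459, minus strand), the subunit whose level cycles and which completes the ring in G1, went the other way, from 20.4, 21.9 and 21.8 to 8.13, 7.37 and 7.30 FPKM, and was 2.82-fold lower (log2 fold change -1.38 ± 0.0611 (SE), limma adjusted p = 6.17e-10). Its groups did not overlap, nor did those of the other ORC subunits. The ATPase-fold subunits ORC5, ORC2 and ORC3 also fell, with log2 fold changes of -0.50, -0.95 and -1.25. Exons of MBD5 and ACVR2A overlap 6.58% of the exonic bases of ORC4, and both genes were at most at 1.62 FPKM in any library. The ratio of ORC4 to ORC1 was 1.30 ± 0.0689 (SD, n = 3) with DMSO and 9.22 ± 0.910 with SNS-032.

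The 3 licensing genes all fell, with a median log2 fold change of -1.99. CDC6 (chr17:40287633-40304657, plus strand), the ATPase that joins ORC at the origin, was at 46.4, 46.8 and 46.5 FPKM with DMSO and at 4.27, 5.08 and 4.58 FPKM with SNS-032. This 10.0-fold lower level was the deepest fall of the 57 genes (log2 fold change -3.08 ± 0.0616 (SE), limma adjusted p = 1.34e-12) and the 9th lowest log2 fold change of the 12239 genes tested. CDT1, which delivers the helicase to ORC and CDC6, was at 56.1, 58.7 and 56.97 and at 21.9, 24.3 and 21.4 FPKM and was 2.54-fold lower (log2 fold change -1.31 ± 0.0544 (SE), limma adjusted p = 3.67e-10). GMNN encodes geminin, the inhibitor that binds CDT1 and prevents a second round of licensing, and it fell more than CDT1, with a log2 fold change of -1.99. The ratio of CDT1 to GMNN mRNA was 0.979 ± 0.0376 (SD, n = 3) with DMSO and 1.61 ± 0.0937 with SNS-032. The ratio of CDC6 to CDT1 mRNA was 0.814 ± 0.0162 (SD, n = 3) with DMSO and 0.206 ± 0.00989 with SNS-032. The libraries of the groups did not overlap in either ratio.

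All 6 genes of the MCM2-7 ring, the helicase motor, were lower, with a median log2 fold change of -1.43. MCM6 (chr2:135839626-135876426, minus strand) was at 73.1, 70.7 and 72.1 FPKM with DMSO and at 7.73, 9.32 and 9.53 FPKM with SNS-032, 8.12-fold lower (log2 fold change -2.89 ± 0.0687 (SE), limma adjusted p = 4.49e-12). MCM2, the subunit with a histone-binding tail, changed least in the ring, from 101, 103 and 98.6 to 56.4, 64.8 and 63.3 FPKM, and was 1.64-fold lower (log2 fold change -0.71 ± 0.0534 (SE), limma adjusted p = 8.02e-08). Between them lay the log2 fold changes of MCM4 (-1.79), MCM7 (-1.51), MCM3 (-1.35) and MCM5 (-0.82). The fall was thus unequal within a complex that holds its subunits in equal number, and the ratio of MCM6 to MCM2 was 0.713 ± 0.0241 (SD, n = 3) with DMSO and 0.144 ± 0.00670 with SNS-032. Summed over the ring, FPKM were 978, 985 and 969 with DMSO and 362, 377 and 374 with SNS-032.

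The 5 genes that fire origins and assemble the active helicase all fell (median log2 fold change -0.68). CDC7, the catalytic subunit of the kinase that phosphorylates the MCM ring, was at 27.1, 26.9 and 27.8 and at 11.1, 10.6 and 11.8 FPKM, 2.44-fold lower (log2 fold change -1.22 ± 0.0550 (SE), limma adjusted p = 7.44e-10). Its activator DBF4 had a log2 fold change of -0.56, and the ratio of CDC7 to DBF4 was 0.702 ± 0.0263 (SD, n = 3) with DMSO and 0.429 ± 0.0347 with SNS-032. MCM10, needed for the ring to start unwinding, changed about as little as DBF4, from 24.5, 23.1 and 24.1 to 16.2, 15.4 and 16.2 FPKM (log2 fold change -0.56 ± 0.0521 (SE), limma adjusted p = 6.07e-07). CDC45, the helicase cofactor, and TOPBP1, the scaffold that brings CDC45 and GINS to the ring, had log2 fold changes of -0.68 and -0.82.

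All 4 GINS genes, which encode the tetramer bound to CDC45 and MCM2-7, were lower (median log2 fold change -1.29). GINS2 was at 88.5, 90.6 and 86.3 FPKM with DMSO and at 22.8, 23.1 and 23.9 FPKM with SNS-032, 3.81-fold lower (log2 fold change -1.88 ± 0.0441 (SE), limma adjusted p = 4.18e-12). GINS4, the least abundant subunit, was at 8.20, 8.59 and 8.43 and at 6.24, 5.99 and 5.92 FPKM, 1.39-fold lower (log2 fold change -0.42 ± 0.0606 (SE), limma adjusted p = 3.50e-05), a call that was lost when all libraries were shifted to the same median (log2 fold change -0.12, adjusted p = 0.0882). GINS3 and GINS1 had log2 fold changes of -1.45 and -1.12. The share of GINS4 in the summed FPKM of the tetramer was 5.47% ± 0.121 (SD, n = 3) with DMSO and 11.7% ± 0.443 with SNS-032.

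The 4 genes of DNA polymerase alpha-primase, which lays the RNA-DNA primers, were all lower (median log2 fold change -1.23). PRIM1 (chr12:56731596-56752373, minus strand), the catalytic primase subunit, was at 40.8, 42.5 and 44.6 FPKM with DMSO and at 5.64, 5.04 and 6.38 FPKM with SNS-032, 7.50-fold lower (log2 fold change -2.71 ± 0.0736 (SE), limma adjusted p = 1.23e-11). POLA1, the polymerase subunit, was at 27.9, 27.1 and 27.5 and at 14.9, 14.5 and 14.2 FPKM and fell least (log2 fold change -0.88 ± 0.0493 (SE), limma adjusted p = 5.23e-09). The primase partner PRIM2 and the B subunit POLA2 had log2 fold changes of -0.91 and -1.54. With DMSO the catalytic primase subunit exceeded its partner in mRNA, and with SNS-032 the ratio of PRIM1 to PRIM2 was near 1 (3.48 ± 0.150 (SD, n = 3) with DMSO and 0.942 ± 0.0904 with SNS-032). Exons of NACA and AC117378.1 on the same strand and of HSD17B6 on the opposite strand overlap PRIM1. Summed over these genes, the overlap is 21.6% of its exonic bases, and the part of NACA alone was not computed. NACA was at 746 to 766 FPKM with DMSO and at 981 to 1045 FPKM with SNS-032.

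The polymerases of the leading and lagging strands did not move as units. Of the 4 genes of polymerase delta, which elongates Okazaki fragments, POLD3, POLD2 and POLD4 were lower and POLD1 was called in neither direction. POLD3, an accessory subunit that binds PCNA, was at 30.3, 27.6 and 29.4 and at 6.30, 6.55 and 7.26 FPKM, 4.34-fold lower (log2 fold change -1.97 ± 0.0640 (SE), limma adjusted p = 4.88e-11). POLD1, the catalytic subunit, was at 38.3, 41.9 and 42.0 FPKM with DMSO and at 43.3, 40.9 and 37.8 FPKM with SNS-032, with overlapping groups (log2 fold change -0.0037 ± 0.0588 (SE), limma adjusted p = 0.953), and it was higher when libraries were shifted to the same median (0.30) or quantile normalized (0.19). The ratio of POLD1 to POLD3 was 1.40 ± 0.127 (SD, n = 3) with DMSO and 6.11 ± 0.838 with SNS-032. POLD2, the B subunit, had a log2 fold change of -1.27. POLD4, the smallest subunit, had one of -0.35, a call lost under the same pair of scalings (-0.05 and -0.04).

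Of the 4 genes of polymerase epsilon, which synthesizes the leading strand, POLE2 and POLE were lower, POLE3 was higher and POLE4 was called in neither direction. POLE2, the B subunit, was at 19.3, 19.9 and 19.6 and at 5.35, 4.71 and 3.85 FPKM, 4.22-fold lower (log2 fold change -1.88 ± 0.0873 (SE), limma adjusted p = 9.91e-10). The catalytic subunit POLE had a log2 fold change of -0.71. POLE3 (chr9:113407235-113410672, minus strand), a histone-fold subunit that also belongs to the CHRAC chromatin remodeler, was at 115, 119 and 118 FPKM with DMSO and at 146, 132 and 147 FPKM with SNS-032 and rose 1.21-fold (log2 fold change 0.27 ± 0.0477 (SE), limma adjusted p = 0.000205). POLE4, its histone-fold partner, was at 26.3, 30.8 and 33.8 and at 30.6, 23.2 and 22.9 FPKM, with overlapping groups (log2 fold change -0.24 ± 0.118 (SE), limma adjusted p = 0.0797). POLE4 was called lower without DMSO replicate 1 (-0.33, limma adjusted p = 0.0206), without SNS-032 replicate 1 (-0.37, 0.0024) and with libraries rescaled to the same total (-0.29, 0.0216). Its value was -0.16 without DMSO replicate 3 (limma adjusted p = 0.248) and turned positive under the median shift (0.06, 0.648) and quantile normalization (0.03, 0.811). The ratio of POLE3 to POLE4 was 3.92 ± 0.439 (SD, n = 3) with DMSO and 5.62 ± 0.819 with SNS-032.

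PCNA, the sliding clamp, and the 5 genes of RFC, the clamp loader, were all lower (median log2 fold change -1.12). PCNA stayed among the most abundant of the genes, at 349, 336 and 339 FPKM with DMSO and at 284, 287 and 283 FPKM with SNS-032, 1.20-fold lower (log2 fold change -0.26 ± 0.0372 (SE), limma adjusted p = 2.74e-05). Its direction turned when libraries were shifted to the same median (0.04), where it was called in neither direction. RFC2, one of the small ATPase subunits, was at 107, 107 and 112 and at 34.3, 34.0 and 30.9 FPKM, 3.28-fold lower (log2 fold change -1.69 ± 0.0497 (SE), limma adjusted p = 2.35e-11). The other small subunits, RFC4, RFC3 and RFC5, had log2 fold changes of -1.67, -1.39 and -0.82, and the large subunit RFC1 one of -0.85. Summed over RFC, FPKM were 285, 279 and 284 with DMSO and 109, 109 and 107 with SNS-032. Named pseudogenes of PCNA number 3 in GENCODE, so reads of near-identical copies may have been split between them, which also applies to RPA2 with 3 and to DBF4, POLD2, RFC3, RFC5, FEN1 and RNASEH2C with 1 each.

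Both genes of the alternative clamp loader, in which CHTF18 and DSCC1 join the small RFC subunits, changed, in opposite directions. DSCC1 was at 29.9, 27.2 and 28.2 FPKM with DMSO and at 6.77, 6.58 and 7.63 FPKM with SNS-032, 4.07-fold lower (log2 fold change -1.88 ± 0.0654 (SE), limma adjusted p = 8.20e-11). CHTF18 (chr16:788046-800737, plus strand), the large subunit, was at 24.96, 27.1 and 28.4 and at 41.2, 36.2 and 34.9 FPKM and rose 1.39-fold (log2 fold change 0.46 ± 0.0686 (SE), limma adjusted p = 4.19e-05). The pair was near equal in mRNA with DMSO, and the ratio of CHTF18 to DSCC1 was 0.947 ± 0.0969 (SD, n = 3) with DMSO and 5.38 ± 0.764 with SNS-032. Exons of RPUSD1 and GNG13 overlap 5.66% of the exonic bases of CHTF18, and these genes were at 27.8 to 30.1 and 0.16 to 0.55 FPKM with DMSO and at 6.67 to 7.37 and 0.22 to 0.58 FPKM with SNS-032.

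The 3 genes of RPA, the heterotrimer that coats single-stranded DNA, were all lower (median log2 fold change -1.85). RPA2, the middle subunit that checkpoint kinases phosphorylate, was at 45.5, 45.3 and 45.0 and at 11.1, 10.6 and 11.7 FPKM, 4.06-fold lower (log2 fold change -1.93 ± 0.0519 (SE), limma adjusted p = 1.15e-11). RPA1, the large DNA-binding subunit, was at 67.8, 64.6 and 64.8 and at 30.5, 28.7 and 28.5 FPKM, 2.25-fold lower (log2 fold change -1.14 ± 0.0471 (SE), limma adjusted p = 3.41e-10). RPA3, the small subunit and the least abundant of the 57 genes with DMSO, had a log2 fold change of -1.85. On linear FPKM it was 5.2-fold lower, a deeper fall than that of RPA2. Summed FPKM of the trimer were 122, 118 and 118 with DMSO and 43.4, 40.8 and 41.7 with SNS-032.

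Of the 6 genes that mature Okazaki fragments or remove RNA from DNA, 4 were lower and 2 were called in neither direction. RNASEH2A (chr19:12806556-12815201, plus strand), the catalytic subunit of RNase H2, was at 57.7, 63.0 and 58.3 FPKM with DMSO and at 7.36, 6.80 and 7.24 FPKM with SNS-032, 8.36-fold lower (log2 fold change -2.90 ± 0.0555 (SE), limma adjusted p = 1.09e-12). RNASEH2C, a structural subunit of the same enzyme, was at 14.17, 15.44 and 14.02 and at 13.41, 14.01 and 13.45 FPKM and was called in neither direction (log2 fold change -0.09 ± 0.0578 (SE), limma adjusted p = 0.171), although its groups did not overlap, by a narrow margin, and it was higher under the median shift (0.21) and quantile normalization (0.23). The ratio of RNASEH2A to RNASEH2C was 4.10 ± 0.0475 (SD, n = 3) with DMSO and 0.524 ± 0.0340 with SNS-032, so that the order of these subunits in mRNA was turned. RNASEH2B, the third subunit, had a log2 fold change of -1.59. RNASEH2C shares 28.2% of its exonic bases with KAT5 on the opposite strand, which was at 27.9 to 29.1 FPKM with DMSO and at 9.07 to 11.6 FPKM with SNS-032, and the use of strand in the counting is not given in the sources used here.

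LIG1, the ligase that seals Okazaki fragments, was at 47.7, 49.9 and 49.8 FPKM with DMSO and at 49.0, 48.8 and 45.4 FPKM with SNS-032, with overlapping groups (log2 fold change -0.04 ± 0.0473 (SE), limma adjusted p = 0.415), and it was higher under the median shift (0.26) and quantile normalization (0.11). FEN1, the flap endonuclease that acts just before it, had a log2 fold change of -1.28, and DNA2, the helicase-nuclease for long flaps, one of -1.47. The ratio of LIG1 to FEN1 was 0.746 ± 0.0359 (SD, n = 3) with DMSO and 1.80 ± 0.0394 with SNS-032, and that of PCNA, the clamp to which both enzymes bind, to FEN1 was 5.18 ± 0.0890 (SD, n = 3) with DMSO and 10.8 ± 0.282 with SNS-032.

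The 4 genes that protect the moving fork and mediate its checkpoint were all lower (median log2 fold change -0.98). WDHD1, which encodes the fork protein AND-1 that ties polymerase alpha to the helicase, was at 16.7, 16.6 and 15.6 and at 5.42, 5.01 and 4.99 FPKM, 3.17-fold lower (log2 fold change -1.50 ± 0.0619 (SE), limma adjusted p = 3.57e-10). TIMELESS fell least, from 32.8, 32.9 and 33.4 to 22.0, 19.6 and 20.6 FPKM, 1.59-fold lower (log2 fold change -0.65 ± 0.0526 (SE), limma adjusted p = 1.60e-07). TIPIN, its obligate partner, and CLSPN, the mediator that brings CHK1 to ATR, had log2 fold changes of -1.01 and -0.95. The ratio of TIPIN to TIMELESS was 0.738 ± 0.0324 (SD, n = 3) with DMSO and 0.561 ± 0.0355 with SNS-032.

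Since the subunits of a complex act together, their summed levels and the share of each subunit in the sum were followed. The sums compare libraries and depend on their scaling. A share is computed within a library and stays the same when all its FPKM are multiplied by the same factor. Shares were not computed again under the median shift or quantile normalization. The summed FPKM of RNase H2, polymerase alpha-primase, GINS, RPA, MCM2-7 and RFC were left at 31.0%, 31.9%, 33.6%, 35.2%, 37.9% and 38.4% of DMSO, and that of polymerase delta at 56.0%. The sum of polymerase epsilon was at 95.7% of DMSO and that of ORC at 108.3%, while the composition of both changed. Of the ORC sum, ORC4 made up 19.0% ± 0.0974 (SD, n = 3) with DMSO and 44.0% ± 0.676 with SNS-032. Of the epsilon sum, POLE3 made up 58.7% ± 0.916 (SD, n = 3) with DMSO and 74.0% ± 1.92 with SNS-032, and of the delta sum POLD1 made up 24.2% ± 0.590 (SD, n = 3) with DMSO and 43.2% ± 1.43 with SNS-032. Subunits that were themselves lower also gained share, such as POLD4 in polymerase delta and MCM2 in the helicase ring. In the other direction, MCM6 made up a share of the helicase ring of 7.36% ± 0.163 (SD, n = 3) with DMSO and 2.39% ± 0.221 with SNS-032. The share of PRIM1 in polymerase alpha-primase was 38.1% ± 1.13 (SD, n = 3) with DMSO and 15.9% ± 1.61 with SNS-032. The share of RNASEH2A in RNase H2 was 29.4% ± 1.30 (SD, n = 3) with DMSO and 11.3% ± 0.382 with SNS-032. None of these 6 shares overlapped between the groups. By contrast, the shares of GINS3, MCM3, POLA2 and POLE4 in their complexes overlapped between the groups.

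**Figure D5:**
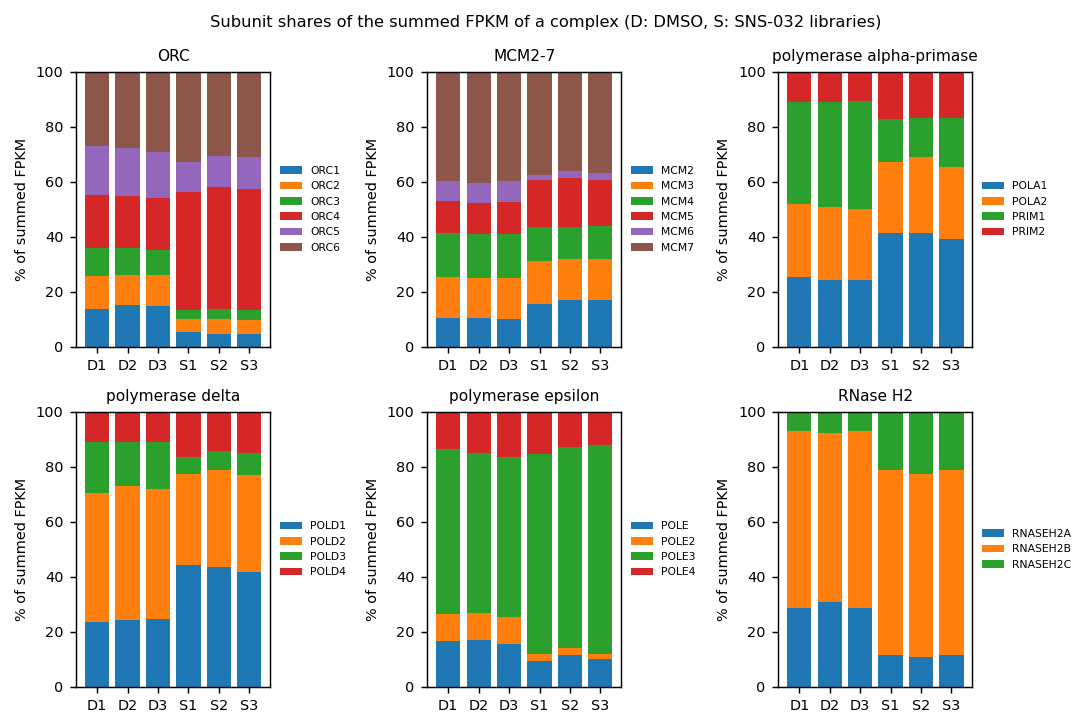
Share in percent (y axis) of each subunit in the summed FPKM of its complex, as stacked bars of the DMSO and SNS-032 libraries for the complexes shown. As group means (n = 3 libraries each), ORC4 widens from 19.0% to 44.0% of ORC. PRIM1 narrows from 38.1% to 15.9% of polymerase alpha-primase.

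Other genes of the pathway, a list of 42 further replication, fork and S phase regulators, held 32 genes that were lower, 7 that were higher and 3 that were called in neither direction, with a median log2 fold change of -0.62. This is 76.2% lower and 16.7% higher, beside 49.3% and 39.9% of all genes tested and 56.4% and 34.3% of those at 5 FPKM or more. With libraries shifted to the same median, 27 were lower and 10 higher. CCNE2, which encodes cyclin E2, was at 44.7, 42.8 and 47.8 FPKM with DMSO and at 8.20, 7.67 and 8.37 FPKM with SNS-032 (-2.34 on the log2 scale). EXO1, the mismatch repair exonuclease, and CUL4B, a scaffold of the ligase that degrades CDT1, followed with log2 fold changes of -2.15 and -1.77. HUS1, part of the checkpoint clamp, TOP1, the topoisomerase that relaxes DNA ahead of the fork, and DBF4B, a DBF4 paralog, rose, with 0.75, 0.65 and 0.59. DBF4B therefore moved against its paralog DBF4 (-0.56).

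Markers of G2 and mitosis, listed as another stage of the cell cycle, were called in both directions: 9 of 14 were lower, 3 were higher and 2 were called in neither direction (median log2 fold change -0.55). At 64.3% lower and 21.4% higher, the list lay nearer than the replication genes to the shares over all genes at 5 FPKM or more (56.4% and 34.3%). The mitotic kinase PLK1 was at 61.3, 65.2 and 63.0 FPKM with DMSO and at 220.5, 197 and 204 FPKM with SNS-032 (1.70 on the log2 scale), and the spindle protein TPX2 and cyclin B1 (CCNB1) rose by 1.28 and 1.27. The aurora kinases AURKB and AURKA and the APC/C activator CDC20 fell, with -1.34, -0.89 and -0.76. The count of higher markers was 5 without SNS-032 replicate 1, and also 5 under the median shift and under quantile normalization. The list summed to 909 to 914 FPKM in the DMSO libraries and to 1013 to 1031 FPKM in the SNS-032 libraries. This higher sum came mainly from the 3 higher genes, while 9 of the 14 were lower. Means with DMSO and SNS-032 were 63.2 and 207.2 FPKM for PLK1, 79.2 and 193.7 for TPX2, and 53.6 and 130.9 for CCNB1. The part of this list in the changes of the replication genes was not tested.

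Level and length of the genes were compared with the size of their changes. Across the 57 genes, as a description, the log2 fold change correlated with the DMSO level at Pearson's r = -0.13 (Spearman's rho -0.20), and across 11881 tested genes with a single coding gene model at -0.44 (rho -0.45). For the genomic span of the gene, which sets how far RNA polymerase II must travel, r was -0.04 over the 57 genes and -0.06 over the tested genes. For the summed exon length, r was 0.18 (rho 0.24) over the 57 genes and -0.05 (rho 0.0019) over the tested genes. These values are across genes of the same libraries, and genes are not independent replicates. Exons of other genes overlap 35.1% of the exonic bases of POLA2, 30.8% of RNASEH2A, 21.3% of POLD4, 8.94% of MCM7 and 8.68% of FEN1, and reads may be shared there. Part of the relation with the DMSO level is built in, since the DMSO values enter both axes.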

How the data were processed

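RNA from 6 libraries of REH cells was analysed, 3 per group, with groups taken from the sample labels. Titles name SNS-032, while the treatment label of the same samples spells the agent SNA-032. The methods name Bowtie2 and HISAT for mapping and RSEM for expression levels, and GRCh38.p12 and HISAT2 2.0.4 appear in the submitters' processing notes. The authors deposited FPKM per gene and library. Their own comparison (q-values, p-values and log2 fold changes) stands in the same table and was not used. Every deposited FPKM column was matched to a sample.

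The FPKM were not rescaled, and log2(FPKM + 1) was fitted for genes whose mean in DMSO or SNS-032 reached 1 FPKM, with limma 3.58.1 in R 4.3.3 (trended prior variance, robust estimation), with Benjamini-Hochberg adjustment over all genes tested and a threshold of 0.05. The script was tested on simulated data. Shares and ratios were computed within each library with Python 3.11.15 and pandas 2.3.3 and carry no test. Depth is unknown, so the spread between libraries alone gives the precision. Positions and exon overlaps came from GENCODE v29 on GRCh38, and promoters from RefSeq on GRCh38.p14. The replication genes and the other lists were chosen with earlier results of these data known.

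Values per library are given for the lowest and highest log2 fold change of each role group and for every gene that was higher or called in neither direction. Of the further replication factors and the mitotic markers, the 3 lowest and 3 highest that passed the threshold and reached 5 FPKM are named. The alternatives were an added value of 0.1, no filter, a filter at 5 FPKM, the replicate number as a block, 3 other scalings (a total of 1e+06, the same median, quantile normalization), limma without trend and robust estimation, and leaving out each library in turn.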

Additional observations from a re-analysis of the deposited data

How the results depend on the processing

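Under 14 alternatives, 50 of the 57 genes kept their direction and their side of the threshold in each, among them ORC4, ORC6, CHTF18 and POLE3, which stayed higher. The exceptions were GINS4, POLD1, POLD4, POLE4, PCNA, LIG1 and RNASEH2C. Scaling changed most. With libraries shifted to the same median, 7 genes were higher and the median log2 fold change was -0.84. POLD1 (0.30), LIG1 (0.26) and RNASEH2C (0.21) had turned positive, as had PCNA (0.036) and POLE4 (0.06), both called in neither direction. With quantile normalization, 7 genes were higher, the median was -0.91, and POLD1 (0.19), LIG1 (0.11), RNASEH2C (0.23) and POLE4 (0.03, again in neither direction) had turned positive. With libraries rescaled to a total of 1e+06 the median was -1.21. No RNA of known amount was used here to choose between scalings, and the cause was not tested. Leaving out each library in turn gave 49 to 50 genes lower, 4 genes higher in every case, and medians from -1.17 to -1.13. The filters, the added value of 0.1 and the plainer limma fit changed no call among the 57 genes.

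Groups share replicate numbers in the labels, but deviations of same-numbered libraries correlated at -0.12, 0.01 and -0.02, and no label ties them together. With the replicate number as a block, 49 genes were lower and 4 were higher, as without it, with a median of -1.14.

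FPKM hold no counts, so the depth that limits low genes such as RPA3 and GINS4 cannot be given.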
